A study of Mus musculus with 12 samples.

Results

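Coding regions whose RNA and ribosome footprints were both lower in Eif4g2 knockout organoids than in wild type are described here. Of 1923 transcript rows of intermediate length that were counted deeply enough to be judged, 43 met the rule. Those 43 rows fell into 26 transcript groups, a group being a set of neighbouring rows whose counts show that they share reads. To be eligible, a row needed a length of 91 to 999, at least 40 RNA-seq counts and at least 200 footprint counts summed over the wild-type libraries. A member then needed a log2 ratio of knockout (KO) to wild type (WT) of -1 or less in RNA-seq and of -0.7 or less in footprints, both from summed counts scaled to the total of the group. The members were thus chosen by their KO to WT ratios in both assays, so the size of those ratios is a description and carries no test.

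The study measured RNA-seq and ribosome profiling in mouse small-intestinal organoids of 3 genotypes, Eif4g2+/+ (wild type, WT), Eif4g2+/- (heterozygous, Het) and Eif4g2-/- (knockout, KO). Each genotype had 2 libraries per assay, from 2 organoid numbers that recur in both assays. The suffix a stands for the lower number of a genotype and b for the higher, as in WT-a and WT-b, and paired values are given in that order. All groups, WT included, were cultured for 3 days in medium with Noggin, R-spondin-1 and a growth factor for epithelial cells, and received 4-OHT at 0.5 µM for 24 hours. 4-OHT is a tamoxifen metabolite commonly used to activate a Cre recombinase, but the labels name no Cre and no promoter that drives it. They also do not say whether the numbers stand for separate animals, so p-values measure only the spread between these libraries. 

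RNA-seq totals were 387649 to 447153 counts in WT, 554845 to 776173 in Het and 895431 to 1077663 in KO without overlap, so RNA-seq depth and genotype cannot be told apart. Footprint totals were 5551591 to 25899680. The tables hold Ensembl transcript IDs, of which 0 of 278268 matched a name in the reference tables used here. Regions are therefore called by the length given in the tables, and neither the level of Eif4g2 nor markers of intestinal cell types were analysed here. The length has no unit in the tables and is read as codons, since only 33.2% of the values are multiples of 3, whereas coding lengths in nucleotides would all be. The shortest value is -9, so the column may leave out some codons, and a length given here need not be that of the full coding region.

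A ribosome protects a short stretch of the mRNA it is translating from RNase, and sequencing those stretches counts the ribosomes on each coding region. The footprint level of a region depends on how much of its mRNA is present and on how many ribosomes each mRNA carries, so a lower mRNA level alone lowers footprints. eIF4G2 is related to the scaffold protein eIF4G but lacks the part that binds the cap-binding protein eIF4E, and it takes part in the initiation of translation on a subset of mRNAs. Small-intestinal organoids are epithelial cultures in which stem cells renew and give rise to absorptive and secretory cells. In such bulk material fewer cells of a type and less RNA per cell cannot be told apart.

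The members were a minority of the regions that were lower in either assay. RNA was at or below its threshold in 103 eligible rows and footprints at or below theirs in 94, so the 43 members made up 41.7% of the first set and 45.7% of the second. A further 60 rows had lower RNA with footprints above the threshold, and 51 had lower footprints with RNA above it. The mirrored thresholds, a log2 ratio of at least 1 in RNA-seq and 0.7 in footprints, were met by 4 rows in 3 transcript groups. Count minimums were set in WT only, which leaves out rows that are low in WT and high in KO. The 4 and 43 rows are therefore not a like comparison. Over all eligible rows the median log2 ratio of KO to WT was -0.01 in each assay.

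**Figure D1:**
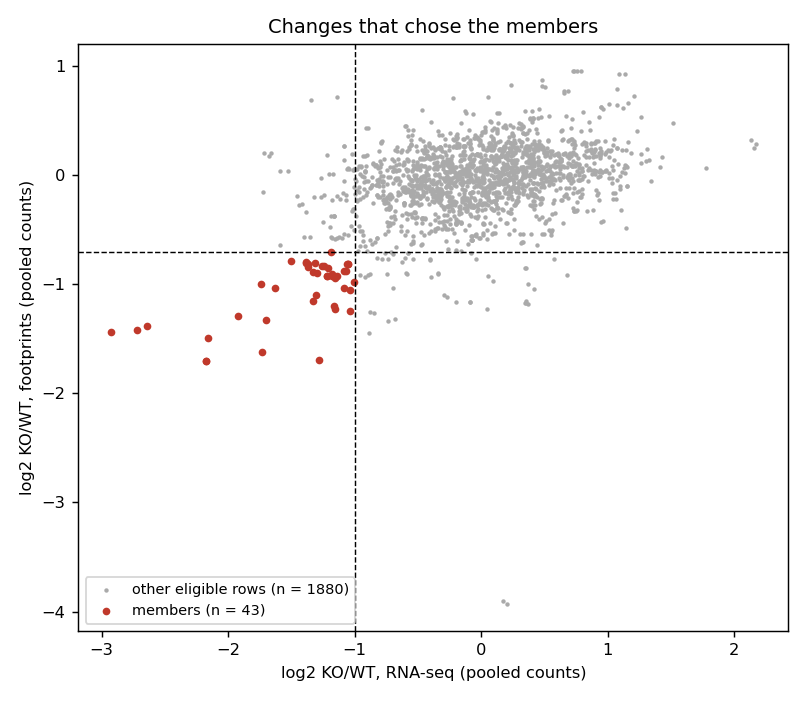
Log2 ratio of KO to WT in RNA-seq (x axis) against that in footprints (y axis), from counts summed over 2 libraries per group, for the 43 members (red) and the other 1880 eligible rows (grey). Dashed lines mark the thresholds of -1 and -0.7, and the members lie in the lower left corner, which the rule defines.

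The number of rows overstates the number of independent regions. Of the 26 groups, 16 held a single member, and the fullest held 6 isoform rows of 596 to 942 codons with nearly equal counts. The 26 groups held 46 eligible rows, 43 of which were members. In 5 pairs, neighbouring groups lay within 25 counted rows of each other in the tables, and the 539- and 901-codon regions of such a pair had close values in every library. The row with the most counts stands for its group below.

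Among the members the RNA ratio ran from -2.93 to -1.002 with a median of -1.28, and the footprint ratio from -1.71 to -0.71 with a median of -0.93. The RNA ratio was the lower in 38 of 43 rows, although the thresholds themselves differ in that direction. The members nearest to a threshold were the 575-codon region (RNA -1.002, footprints -0.98), the 668-codon region (-1.19 and -0.71), the 983-codon region (-1.04 and -1.24) and the 775-codon region (-1.04 and -1.05). Just outside were rows of 352 codons (-0.97 and -0.70), 902 codons (-0.96 and -0.92), 413 codons (-0.96 and -0.65) and 204 codons (-1.59 and -0.64).

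Levels are given as CPM, counts per 1000000 counts of the library. The most RNA-abundant member, ENSMUST00000067230.6 with 431 codons, had RNA at 295 and 297 CPM in WT, 173 and 193 in Het, with KO at 122 and 122. Its footprints were 70.2 and 80.3 CPM in WT, 58.7 and 64.2 in Het, with KO at 23.2 and 21.7. The genotypes did not overlap in either assay, and, unlike in most members, the footprint ratio (-1.69) was lower than the RNA ratio (-1.28).

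The largest summed fall belonged to ENSMUST00000132139.9, with 698 codons. Its RNA was 40.3 and 64.5 CPM in WT, 30.9 and 41.5 in Het, with KO at 7.82 and 5.57. Footprints on it were 29.6 and 28.5 CPM in WT, 22.2 and 19.99 in Het, with KO at 10.1 and 11.8. Its RNA values rest on few counts, 18 and 25 in WT and 7 and 6 in KO, whereas its footprints rest on 460 and 158 in WT and 261 and 215 in KO. The log2 ratios were -2.93 in RNA-seq and -1.44 in footprints, so that the pooled ratio of footprint CPM to RNA CPM was 0.568 in WT, 0.592 in Het, with KO at 1.64. A neighbouring 522-codon region had ratios of -2.16 and -1.49.

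A region of 496 codons carried by far the most footprints of the members. It had 2355 and 2837 footprint CPM in WT, 2292 and 2133 in Het, with KO at 733 and 805. RNA on the same region was only 80.5 and 106 CPM in WT, 78.6 and 72.1 in Het, with KO at 20.1 and 20.4. Ribosome profiling thus gave it 26.9 times the CPM of RNA-seq in WT, 29.0 times in Het, with KO at 37.6 times. The ratio over the eligible rows in WT had a median of 0.466 and a highest value of 27.5, so this region lay close to the upper end. Both assays were lower in KO, with log2 ratios of -2.18 in RNA-seq and -1.70 in footprints.

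At the other extreme was the 691-codon region, with much RNA and few footprints. Its RNA was 262 and 263 CPM in WT, 191 and 243 in Het, with KO at 88.2 and 121. Footprints were 18.4 and 21.6 CPM in WT, 15.6 and 14.6 in Het, with KO at 8.46 and 9.81. The pooled footprint to RNA ratio was 0.0735 in WT, 0.0708 in Het, with KO at 0.0851. The 496- and 691-codon regions thus met the rule at very different ratios of footprint to RNA CPM. Each assay was scaled to its own total, so the ratio is not a count of ribosomes per mRNA.

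The 427-codon region was lower in KO by nearly the same amount in both assays. RNA was 71.6 and 67.1 CPM in WT, 64.4 and 72.1 in Het, with KO at 20.1 and 21.3. Footprints were 21.9 and 22.7 CPM in WT, 18.1 and 22.4 in Het, with KO at 7.18 and 7.18. The log2 ratios of KO to WT were -1.74 and -1.62, and Het overlapped WT in both assays.

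The 659-codon region had a similar pattern. Its RNA was 121 and 85.1 CPM in WT, 102 and 97.3 in Het, with KO at 26.8 and 27.8. Footprints were 79.2 and 90.4 CPM in WT, 86.9 and 88.0 in Het, with KO at 33.2 and 33.9. Both Het libraries lay within the range of WT in both assays, and both KO libraries lay far below it. A neighbouring row, also of 431 codons, had ratios of -1.70 in RNA-seq and -1.32 in footprints.

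The 585-codon region had RNA at 210.2 and 204 CPM in WT, 170.1 and 189 in Het, with KO at 74.8 and 71.5, with footprints at 60.6 and 68.6, 64.7 and 64.0, and 36.6 and 35.8 CPM in the same order. Its log2 ratios were -1.50 and -0.79. The 140-codon region, among the shortest, had ratios of -1.33 and -0.89, and the 759-codon region -1.17 and -1.20. The 251-codon region, with 209 pooled WT footprint counts the lowest of the members, had -1.74 and -0.997.

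In every member both KO libraries lay below both WT libraries, in RNA-seq as in footprints. The same held for 34.3% of eligible rows in RNA-seq and 37% in footprints. edgeR's quasi-likelihood test, with Benjamini-Hochberg adjustment over 12356 merged rows in RNA-seq and 33221 in footprints, called all 43 rows lower in KO than in WT in each assay, where 9.33% and 14.2% of all rows tested were called lower. The rule used this contrast, so nothing is read from these counts. All 43 rows passed the count filter of each fit.

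**Figure D2:**
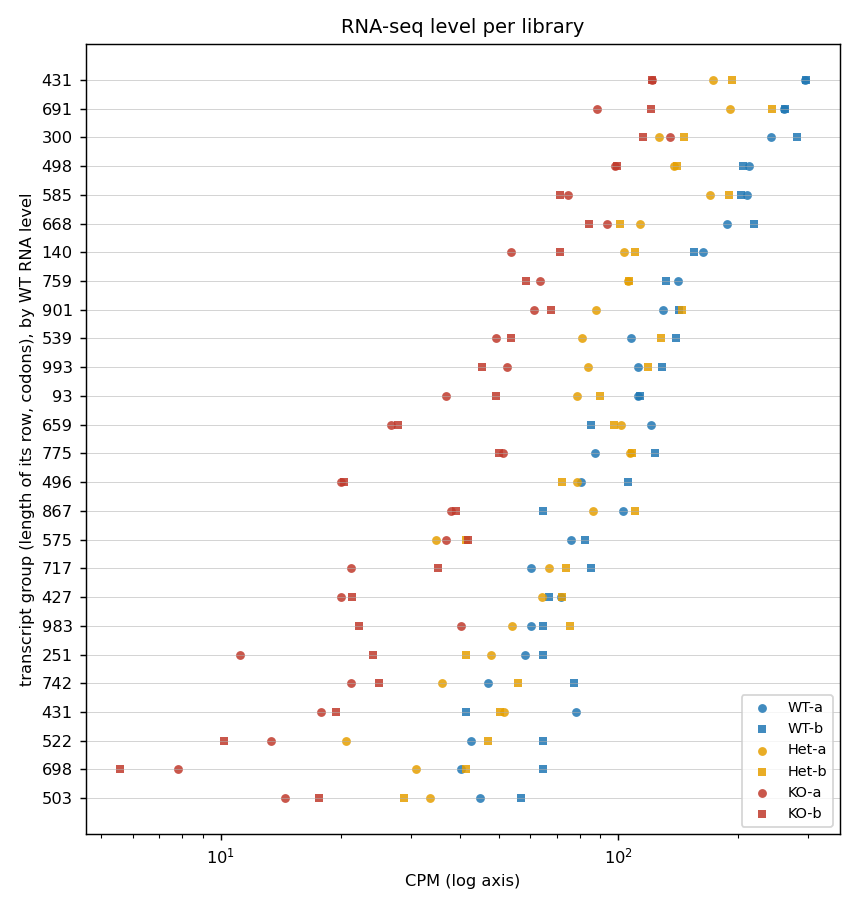
RNA-seq CPM (log axis) of the 26 transcript groups in each of the 6 libraries, with groups labelled by the length in codons and ordered by WT level. KO points (red) lie left of WT points (blue) in every group, while Het points (orange) range from the KO level in the 575-codon region to the WT level in the 427-codon region.

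**Figure D3:**
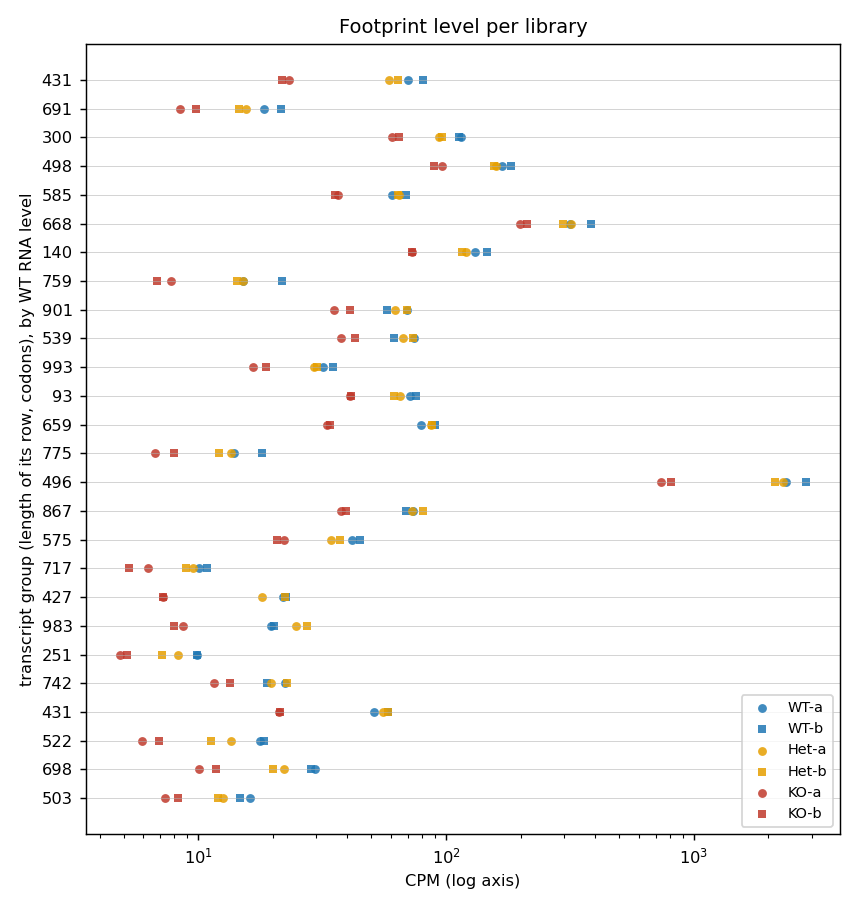
Footprint CPM (log axis) of the same 26 groups in the same order, 6 libraries each. Het points (orange) lie right of both KO points (red) in all 26 groups, and the 496-codon region stands apart at 733 to 2837 CPM.

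The Het libraries took no part in choosing the members. They can only be compared with WT or KO libraries that did, and members were chosen for high WT and low KO values, so a Het level between the homozygotes is partly set by that choice. Each contrast with Het is therefore given by its own values.

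RNA in Het was lower than in WT at 5 of 43 rows by edgeR's quasi-likelihood test (adjusted p under 0.05), against 1.63% of all rows tested that were lower. Of the 1923 eligible rows, which are counted more deeply, 4.16% were called lower. These 5 rows belonged to 5 groups. The 300-codon region had the lowest adjusted p, with RNA at 242 and 281 CPM in WT, 126 and 146 in Het, with KO at 135 and 115. Its log2 change in Het was -1.05 (SE 0.18, edgeR adjusted p 0.000139), and the Het and KO libraries overlapped. Footprints on it were 115 and 113 CPM in WT, 93.4 and 96.2 in Het, with KO at 60.7 and 64.4, with a Het change of -0.26 that was not called (SE 0.07, edgeR adjusted p 0.0828).

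In the 668-codon region RNA was 188 and 219 CPM in WT, 113 and 101 in Het, with KO at 93.8 and 84.4, a change in Het of -1.01 (SE 0.19, edgeR adjusted p 0.000498). Footprints were 315 and 385 CPM in WT, 319.9 and 295 in Het, with KO at 199 and 212. The footprints of Het overlapped those of WT and were not called (log2 change -0.18, edgeR adjusted p 0.471).

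In the 575-codon region RNA was 76.0 and 82.5 CPM in WT, 34.8 and 41.5 in Het, with KO at 36.9 and 41.8. Het RNA was thus at the level of KO, with a change of -1.17 from WT (SE 0.28, edgeR adjusted p 0.0104). Footprints on this region were 41.6 and 45.0 CPM in WT, 34.5 and 37.3 in Het, with KO at 22.2 and 20.7, so footprints in Het lay above those in KO without overlap. The remaining calls were ENSMUST00000067230.6, with a Het change of -0.81 (SE 0.16, edgeR adjusted p 0.00164), and the 498-codon region, with -0.69 (SE 0.18, edgeR adjusted p 0.0223). Without WT-a or without Het-a the calls dropped from 5 to 2, those of the 300- and 668-codon regions, and without WT-b to 3. Without Het-b there were again 5, but the 498-codon region was not among them (edgeR adjusted p 0.0785). DESeq2 called 3 rows. Over all 12356 rows tested it called 52 lower in Het, against 201 by edgeR. Leaving out a WT or Het library likewise lowered the number of calls over all rows tested, so the drop was not particular to the members.

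Footprints in Het were lower than in WT at 2 of 43 rows by edgeR, where 0.482% of all rows tested and 0.624% of eligible rows were called lower. They were ENSMUST00000132139.9, with a log2 change of -0.47 (SE 0.10, edgeR adjusted p 0.0346), and the neighbouring 522-codon region, with -0.54 (SE 0.13, edgeR adjusted p 0.0497). Footprints on the 522-codon region were 17.8 and 18.4 CPM in WT, 13.6 and 11.3 in Het, with KO at 5.95 and 6.96. DESeq2 called 0 of the 43 rows, and 52 of all 33221 rows tested lower in Het, against 160 by edgeR. With a WT or Het library left out, the log2 change of ENSMUST00000132139.9 ran from -0.55 to -0.38. That of the 522-codon region ran from -0.67 to -0.39. Neither row was called in every such fit, and the number of calls over all rows tested changed as well.

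The 983-codon region went the other way. Its footprints were 19.7 and 20.2 CPM in WT, 24.7 and 27.5 in Het, with KO at 8.65 and 8.00. Het thus lay above WT without overlap, with a log2 change of 0.41 that edgeR did not call (SE 0.10, adjusted p 0.0541). RNA on it was 60.4 and 64.5 CPM in WT, 54.1 and 75.7 in Het, with KO at 40.2 and 22.3. The 867-codon region, the group of 6 isoform rows, had the highest RNA ratio of Het to WT, 0.17, and a footprint ratio of 0.10. Its Het libraries overlapped WT in RNA-seq and its KO libraries lay below them in both assays.

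Over the 43 rows the median log2 change of Het against WT was -0.37 in the RNA-seq fit and -0.14 in the footprint fit. The corresponding medians over the eligible rows were -0.11 and -0.01. The medians of the members moved with single libraries, in RNA-seq to -0.18 without Het-a and -0.61 without Het-b, and in footprints to -0.07 without WT-b and -0.24 without WT-a. With libraries scaled to their totals in place of the TMM factors of the fit, the RNA-seq medians were -0.29 over members and -0.01 over eligible rows, a shift of about 0.1 in both sets. Both Het libraries lay below both WT libraries in 17 of 43 rows in RNA-seq, against 25.8% of eligible rows, and in 21 rows in footprints, against 26.6%. In footprints both Het libraries lay above both WT libraries in 3 rows, against 20.7% of eligible rows, and in RNA-seq in 0 rows, against 25.8%. Counted by transcript group, 13 of 26 groups had Het RNA below WT, 15 had Het footprints below WT, and 10 had both. The matching shares over eligible groups were not computed, so nothing is read from these group counts.

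The Het libraries differed from each other in RNA-seq. RNA of Het-a was below that of Het-b in 36 of 43 rows and in 20 of 26 groups, whereas 910 of 1923 eligible rows had this order. The median log2 level relative to pooled WT was -0.52 in Het-a and -0.11 in Het-b over the 43 rows, and -0.52 and -0.22 over the 26 groups. Over the eligible rows these medians were -0.01 and -0.02, and over the eligible groups -0.03 and -0.05. Footprints of the same organoid numbers showed no such order, with 24 of 43 rows lower in Het-a and medians of -0.12 and -0.14. Isoforms share reads, so the count over groups is the safer description, although the matching share over eligible groups was not computed. Only 1 library per organoid number exists in RNA-seq, so this difference has no replicate check. The WT libraries also differed in RNA-seq. RNA of WT-a was above that of WT-b in 13 of 43 rows, against 954 of 1923 eligible rows. The median log2 difference of WT-a from WT-b was -0.15 over the members and -0.005 over the eligible rows. An order between the RNA libraries of 1 genotype was thus not particular to Het.

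**Figure D4:**
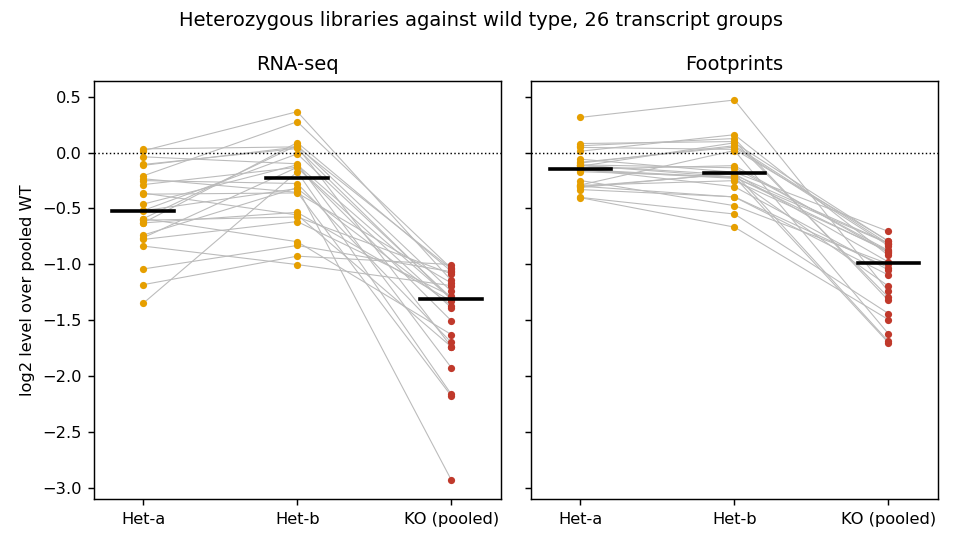
Log2 level relative to pooled WT of the 26 groups in each Het library and in pooled KO, for RNA-seq (left) and footprints (right), with lines joining a group and black bars at the median. The RNA medians of the Het libraries are -0.52 and -0.22, against -0.15 and -0.19 in footprints, and all KO points lie at or below -1 in RNA-seq and -0.7 in footprints because of the rule.

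Members were chosen for low KO values in both assays, so their calls and overlaps in KO against Het are partly set by that choice. Against Het, KO footprints were lower at all 43 rows by edgeR's quasi-likelihood test, with 13.3% of all rows tested and 19.8% of eligible rows called lower. The median log2 change of the members was -0.82, and both KO libraries lay below both Het libraries in all 43 rows, as in 33.9% of eligible rows. KO RNA was lower than Het RNA at 36 of 43 rows, in 20 of 26 groups, with 3.27% of all rows tested and 6.81% of eligible rows called lower and a median change of -1.02. Both KO libraries lay below both Het libraries in 41 rows, against 32.6% of eligible rows, the exceptions being the 300- and 575-codon regions. The log2 changes of these regions from Het to KO were -0.08 (SE 0.18, edgeR adjusted p 0.85) and 0.10 (SE 0.28, edgeR adjusted p 0.878). DESeq2 called 16 of 43 rows in RNA-seq and 42 in footprints. Over all rows tested it called 60 of 12356 lower in RNA-seq and 2019 of 33221 in footprints. The corresponding numbers by edgeR were 404 and 4417. Without Het-b edgeR called fewer rows in RNA-seq, among the members as over all rows tested.

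Ribosome density, the footprint change minus the RNA change, was tested in Het against WT as the interaction of genotype and assay over all 12 libraries. edgeR called 0 of 43 rows, with 5 at an unadjusted p under 0.05, and 0.0939% of the 30890 rows tested were called in either direction, as were 19 of the 1923 eligible rows. DESeq2 called 1 row. The median density change of the members was 0.23, against 0.03 over the eligible rows and -0.11 over all rows tested, and it was 0.08 without Het-a and 0.35 without Het-b. Members were chosen for high WT RNA, with a stricter threshold in RNA-seq than in footprints. A density in Het above that in WT is therefore partly set by that choice. The largest values belonged to the regions whose RNA was low in Het, and a low RNA change itself raises this measure. The density change was 0.86 in the 575-codon region (edgeR adjusted p 0.306), 0.76 in the 668-codon region (edgeR adjusted p 0.172) and 0.72 in the 300-codon region (edgeR adjusted p 0.108). In the 575-codon region the footprint to RNA ratio was 0.547 and 0.546 in WT, 0.990 and 0.900 in Het, with KO at 0.601 and 0.496. In the 300-codon region it was 0.477 and 0.400 in WT, 0.740 and 0.659 in Het, with KO at 0.449 and 0.560. The Het ratios thus lay above those of both homozygotes in these regions. The density test did not call the difference from WT, and the difference between Het and KO in density was not tested.

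Length was not used to choose members among the eligible rows. By transcript group the members had a median length of 580 codons, with quartiles of 447 and 736, against 515 codons (291 and 730) over the 1141 eligible groups. Lengths of 300 codons or less made up 4 of 26 member groups and 295 of 1141 eligible groups, that is 25.9% of the latter. Between 301 and 600 codons there were 10 of 26 member groups and 385 of 1141 eligible groups (33.7%). Lengths of 601 to 999 codons made up 12 member groups and 461 eligible groups (40.4%). The ranges overlap widely, from 93 to 993 codons among the members.

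In WT the members had a median of 104 RNA CPM and 47.9 footprint CPM by group, against 85.1 and 40.6 over eligible groups. The highest member RNA level was 296 CPM, far below the highest eligible one of 12041. WT levels entered the ratios that chose the members. In Het, which the rule did not use, the medians were 97.3 RNA CPM and 46.6 footprint CPM against 89.4 and 41.0. Members made up 2.14% of eligible rows with 40 to 99 pooled WT RNA counts and 2.45% of those with 100 or more. In member groups the median ratio of footprint to RNA CPM was 0.396 in WT and 0.538 in Het. Eligible groups had 0.437 and 0.438. For KO the median ratio stood at 0.538 over member groups, against 0.452 over eligible groups. Members were chosen for high WT and low KO RNA, with a stricter threshold in RNA-seq than in footprints. Their ratios in the homozygotes are therefore partly set by that choice. Nothing is read from the change of order between WT and Het.

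**Figure D5:**
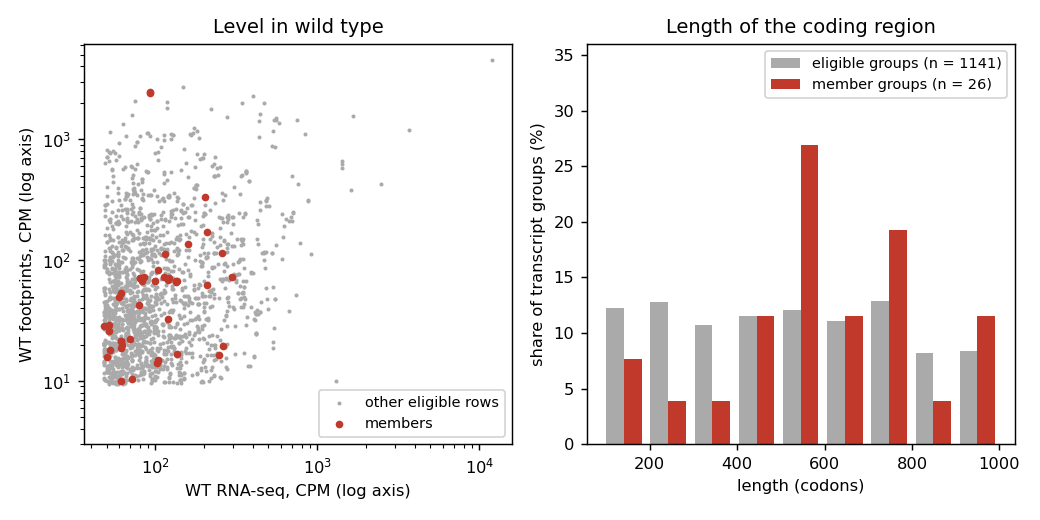
Left, WT footprint CPM against WT RNA-seq CPM (log axes) for the 43 members (red) and the other eligible rows (grey). Right, share of transcript groups by length in codons for 26 member groups and 1141 eligible groups, whose medians are 580 and 515 codons.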

How the data were processed

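RNA-seq and ribosome profiling of 12 libraries were deposited as raw counts, which the authors gave per Ensembl transcript with an unlabelled number per row that is read as a length. The submitters' processing notes name CASAVA 1.8, cutadapt 3.7, UMI-tools 1.1.2, STAR 2.7.0a and build mm39, with no role or order. The counting tool, the annotation and the use of strand are not given in the sources used here. Isoforms of a locus often have equal counts, so a read could count for several of them, and reads of overlapping or near-identical genes could be shared likewise.

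Rows with equal counts in all 12 libraries were merged, leaving 45864 of 63239 counted rows. Groups joined rows within 25 counted rows of each other whose counts matched (chi-square under 3.05, or SD of the log2 ratio under 0.15, from 24 counts; identical rows from 6). The rule added 0.5 to summed counts. edgeR 4.0.16 (R 4.3.3) fitted the merged rows of any length with TMM factors, filterByExpr and quasi-likelihood tests; all p-values are two-sided and SEs are the log2 change over the square root of F. 8 comparisons were tested. The test of density in KO against WT, a contrast the rule used, is not described. Footprint to RNA ratios in KO are given as description only. Alternatives used DESeq2 1.42.0, RLE factors, other filters, transcript groups, fewer libraries and a replicate block. In counts simulated for Het against WT with 200 changed rows, edgeR recovered 74 of 98 changes of 2-fold in RNA-seq (11636 rows), 96 of 100 in footprints (32681 rows) and 67 of 99 in density (29811 rows). The changed rows were drawn only from those above a minimum expected count in every library, and changes below 2-fold were not simulated. These numbers therefore do not give the recovery of smaller changes or of rows with fewer counts.

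The members and alternatives were chosen with earlier results of these data known. Rows described by name are the groups with the most WT RNA counts, the largest summed falls, those nearest the thresholds and those highest or lowest in Het; 2 IDs are printed because no names are paired. The gene and marker lists planned for named genes were not used. No sequence is shown for the same reason.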

Additional observations from a re-analysis of the deposited data

How the results depend on the processing

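The number of members was 43 to 48 with other totals, with 2 counts added, with rows required to be equal in length too or left unmerged. It was 24 over transcript groups, 15 with at least 100 pooled WT RNA counts (43 fall to 15 by construction) and 274 without an RNA minimum. Leaving out WT-a, WT-b, KO-a or KO-b gave 37 to 44 members, of which 29, 35, 36 and 40 were among the 43. In Het against WT, RNA calls were 3 by DESeq2 and 3 without a count filter. Over all rows tested, 52 of 12356 and 95 of 43254 were called lower in these fits. Footprint calls there were 0 by DESeq2, 10 without a count filter (8 lower and 2 higher in Het), 1 with only these genotypes fitted, and 0 to 4 with a replicate left out; other calls higher in Het were 1 row with a minimum of 10 counts in every library and 1 group over transcript groups. RNA calls in KO against Het were 16 by DESeq2 and 20 to 34 with a replicate left out, and footprint calls 42 to 43. In KO against WT, RNA calls were 35 to 43 and footprint calls 43 with a replicate left out. Over transcript groups, 25 RNA and 26 footprint groups were called in KO against WT, and 19 and 26 in KO against Het, fewer by construction. Density calls in Het were 1 by DESeq2 and 1 with at least 10 counts in every library. Over all rows tested, 31 of 30890 and 43 of 5948 were called in these fits. With the replicate block by organoid number 0 density calls were made, as without it (5 rows at an unadjusted p under 0.05); RNA-seq and footprint libraries of the same number shared their deviations with an r of -0.04 in WT, 0.09 in Het and 0.01 in KO over 1923 eligible rows, so pairing was not taken as shown. The cause was not tested where none is named. Of 83 values of counts under alternatives 60 stayed within 1.5 times.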
